A study of Drosophila melanogaster with 6 samples.

Results

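The mitochondrial ribosomal protein genes were taken as the gene rows of an ovarian count table whose FlyBase symbol starts with mRpL or mRpS, and 73 of 17633 gene rows met this rule. By symbol, 47 encode proteins of the large subunit and 26 proteins of the small subunit. The libraries came from ovaries of Drosophila melanogaster aged 3 to 6 days, in 2 groups of 3. The first group was homozygous for flamDeltaProm, a promoter deletion of flam, or flamenco, a locus on X whose transcripts are cut into piRNAs that silence transposons in somatic follicle cells. The control group carried flamDeltaProm over FM7, a balancer X chromosome, so both groups carry the deletion and the controls have 1 flam copy that is not deleted. The genotype field names FM7 while the titles of the controls name a wild-type chromosome, and the genotype field was followed. Both autosomes were labelled wild type in all 6 samples. Nothing in the labels ties a replicate to its own pool of flies. The spread behind each p-value is therefore that of these libraries and may be technical in part.

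The mitochondrial ribosome translates the few messenger RNAs that are still encoded by mitochondrial DNA, which specify core subunits of the respiratory chain and of the ATP synthase. Its ribosomal RNAs also come from mitochondrial DNA, whereas all of its proteins are encoded in the nucleus, made in the cytosol and imported. Egg production loads large numbers of mitochondria into the oocyte, and in Drosophila mutations in genes of this ribosome are known to impair growth and viability.

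Library totals ran from 19564819 to 23181058 counts, and a member had between 231 and 2956 counts in a library. flam RNA itself had 0.507, 0.251 and 0.760 CPM in homozygotes and 1.93, 1.97 and 1.92 CPM in FM7 controls, where CPM is the read count scaled to a library of fixed size with TMM factors. This order follows the genotype labels. One control library, FM7 replicate 3, lay closer to the homozygotes than the other controls did in the median over the genes described here. Germline markers were at similar summed levels in both groups, with 2347 to 2541 CPM over 5 genes in homozygotes and 2276 to 2523 CPM in FM7 controls. Gene by gene they were less even, with a median log2 fold change of 0.19. For 3 of the 5 all homozygous libraries were above all controls, beside 21.6% of all tested genes, and 2 had estimates below 0. Follicle cell markers summed to 5856 to 8379 CPM over 6 genes in homozygotes and 13837 to 15411 CPM in FM7 controls, and late chorion markers to 3469 to 11725 CPM over 6 genes in homozygotes and 24571 to 29000 CPM in FM7 controls. In bulk ovaries, fewer cells of a type and less RNA per cell cannot be told apart.

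The mitochondrial ribosomal protein genes were slightly lower in homozygotes, as a broad and shallow shift. With edgeR's quasi-likelihood test and Benjamini-Hochberg adjustment over all tested genes and transposon families, 11 of 73 members were lower, none was higher and 62 were not past the threshold of 0.05. All 73 passed the filter on low counts. The share of members called lower was 15.1%, beside 7.75% lower and 11.7% higher among all 9150 tested genes. At an unadjusted p under 0.05, 30 members were lower and 0 higher, and 16.6% of all tested genes were lower and 18.9% higher at that level. The estimate was below 0 for 65 members, or 89.0%, beside 52.1% of all tested genes. The median log2 fold change was -0.13 over members and -0.01 over all tested genes.

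No member changed by much. The log2 fold changes ran from -0.44 for mRpS24 to 0.13 for mRpL16, and the 95% intervals of 71 of 73 members lay wholly within 1.5-fold in either direction. The intervals that reached further were those of mRpL33 and mRpS33, with lower bounds of -0.61 for mRpL33 and -0.62 for mRpS33 on the log2 scale. Across members the fold changes had an SD of 0.11, beside a median standard error of 0.07. The median log2 fold change was -0.11 for the large subunit genes, of which 8 of 47 were lower, and -0.15 for the small subunit genes, of which 3 of 26 were lower.

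**Figure D1:**
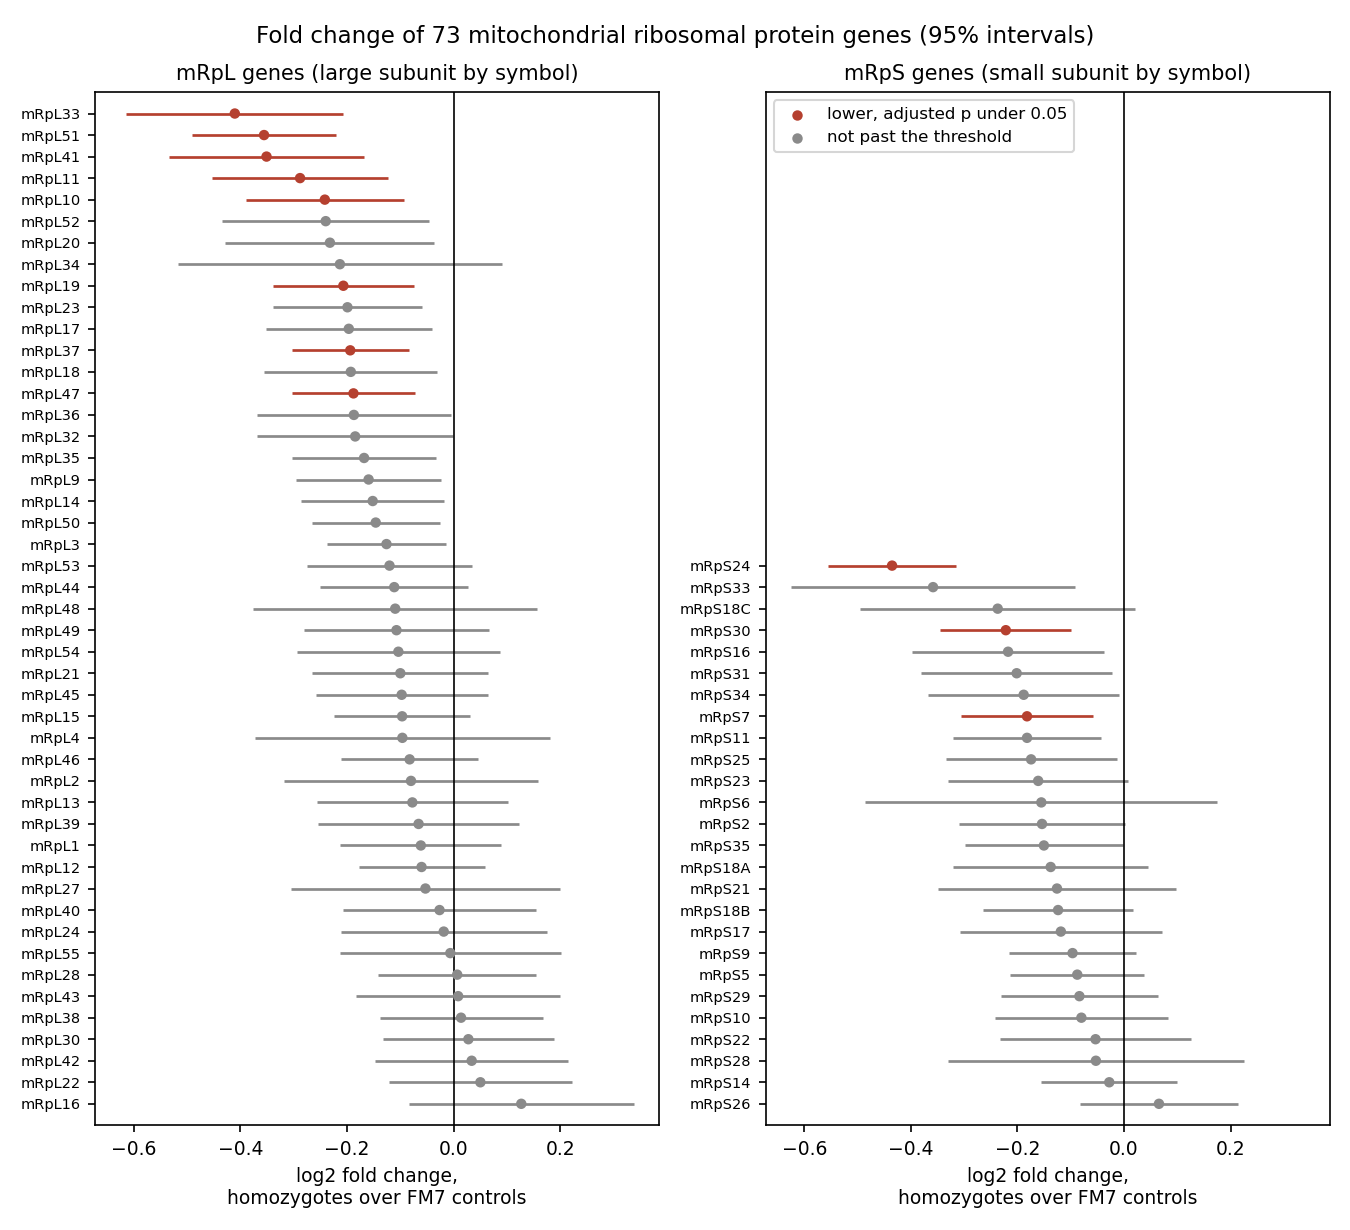
Log2 fold change (x axis) of homozygotes over FM7 controls for each of the 73 members, with 95% intervals of the edgeR fit, split by the subunit that the symbol names. Red points are the 11 members called lower and grey points the 62 not past the threshold; 65 of 73 points lie below 0.

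Among small subunit genes, mRpS24 had the lowest fold change of all members. Its human counterpart corresponds to bacterial S3, at the entrance for messenger RNA. mRpS24 (FBgn0039159, 3R, 24162829 to 24163545, minus strand) had 30.4, 29.9 and 29.6 CPM in homozygotes and 41.4, 39.7 and 40.5 CPM in FM7 controls. All homozygous libraries were below all control libraries, and the log2 fold change was -0.44 (SE 0.05, adjusted p = 0.00171 by edgeR). The gene shares 332 of its 600 exon bases with TBC1d7 on the other strand, so some of its reads may belong to that gene if strand was not used in counting. TBC1d7 averaged 20.4 ± 1.39 CPM in homozygotes and 23.2 ± 1.24 CPM in FM7 controls (SD, n = 3 each), with a log2 fold change of -0.18 that was not past the threshold (edgeR adjusted p = 0.133).

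The other lower small subunit genes were mRpS30 and mRpS7. mRpS30 (FBgn0030692, X, 15786047 to 15788288), whose mammalian counterpart sits in the large subunit despite its name, had 100.2, 94.8 and 96.3 CPM in homozygotes and 112, 109 and 119 CPM in FM7 controls. Its groups did not overlap, and edgeR gave a log2 fold change of -0.22 (SE 0.05) at an adjusted p of 0.0236. mRpS7 (FBgn0032236, 2L, 10386662 to 10387652), a protein of the small subunit head, had 63.8, 59.5 and 64.9 CPM in homozygotes and 69.4, 71.3 and 72.8 CPM in FM7 controls. Here too the groups were apart, with the smallest called change, -0.18 on the log2 scale (SE 0.05) at an edgeR adjusted p of 0.0480.

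Among large subunit genes, mRpL33, mRpL51 and mRpL41 had the lowest fold changes, and all of them encode small proteins, of which mRpL51 and mRpL41 have no bacterial counterpart. mRpL33 (FBgn0040907, X, 4321764 to 4322231) had 10.95, 12.05 and 12.33 CPM in homozygotes and 15.33, 15.66 and 15.98 CPM in FM7 controls. The log2 fold change was -0.41 (SE 0.09, adjusted p = 0.0158 by edgeR), and the groups did not overlap. mRpL51 (FBgn0032053, 2L, 8516753 to 8517380) had 31.7, 33.0 and 32.1 CPM in homozygotes and 43.8, 40.3 and 39.7 CPM in FM7 controls, which gave -0.36 (SE 0.06, adjusted p = 0.0059 by edgeR). mRpL41 (FBgn0034001, 2R, 15217024 to 15217617) had 13.3, 14.6 and 13.8 CPM in homozygotes and 17.6, 18.4 and 17.2 CPM in FM7 controls, which gave -0.35 (SE 0.08, adjusted p = 0.0194 by edgeR). In both genes every homozygous library was below every control library.

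Of genes for the parts that contact translation factors, mRpL10 and mRpL11 were lower and mRpL12 was not past the threshold. mRpL10 (FBgn0031231, 2L, 203779 to 204782), the base of the stalk, had 59.4, 58.2 and 55.4 CPM in homozygotes and 66.6, 64.0 and 73.7 CPM in FM7 controls (log2 fold change -0.24, SE 0.07, adjusted p = 0.0349 by edgeR). mRpL11 (FBgn0038234, 3R, 14511838 to 14512691), which in bacteria forms the factor-binding centre beside the stalk, had 24.6, 22.5 and 24.0 CPM in homozygotes and 30.5, 29.3 and 27.0 CPM in FM7 controls (-0.29, SE 0.07, adjusted p = 0.0269 by edgeR). For both genes, all homozygous libraries were below all controls. mRpL12 (FBgn0011787, 3L), the stalk protein that mRpL10 anchors and that is required in Drosophila for growth driven by Cyclin D and Cdk4, had 113, 124 and 120 CPM in homozygotes and 122, 122 and 128 CPM in FM7 controls. Its groups overlapped, and the log2 fold change of -0.06 was not past the threshold (95% interval -0.18 to 0.06, adjusted p = 0.442 by edgeR), with the opposite sign, 0.02, when library sizes alone were used. mRpL1, of the mobile arm on the other side of the subunit, was not past the threshold either, at 78.0 ± 6.21 CPM in homozygotes and 81.3 ± 2.48 CPM in FM7 controls (SD, n = 3 each).

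The remaining called members were mRpL19, mRpL37 and mRpL47. mRpL19 (FBgn0037608, 3R, 8674109 to 8675196), which has a bacterial counterpart, had 47.1, 45.4 and 46.5 CPM in homozygotes and 49.9, 55.2 and 55.4 CPM in FM7 controls. mRpL37 (FBgn0261380, 3R, 10782563 to 10784092), which has none, had 58.8, 58.1 and 60.3 CPM in homozygotes and 66.4, 68.1 and 68.2 CPM in FM7 controls. mRpL47 (FBgn0014023, 3R, 9514822 to 9515908), a protein at the exit of the peptide tunnel, had 50.14, 49.996 and 51.06 CPM in homozygotes and 58.5, 58.5 and 55.2 CPM in FM7 controls. The homozygous libraries were the 3 lowest for each gene, with log2 fold changes of -0.21, -0.19 and -0.19 (SE 0.06, 0.05 and 0.05) and adjusted p of 0.0400, 0.0253 and 0.0348 by edgeR. Of the other tunnel exit genes, mRpL23 had a log2 fold change of -0.20 (adjusted p = 0.0520 by edgeR), mRpL45, which in mammals binds the ribosome to the inner membrane, -0.10, mRpL24 -0.02 and mRpL22 0.05, and none was past the threshold.

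**Figure D2:**
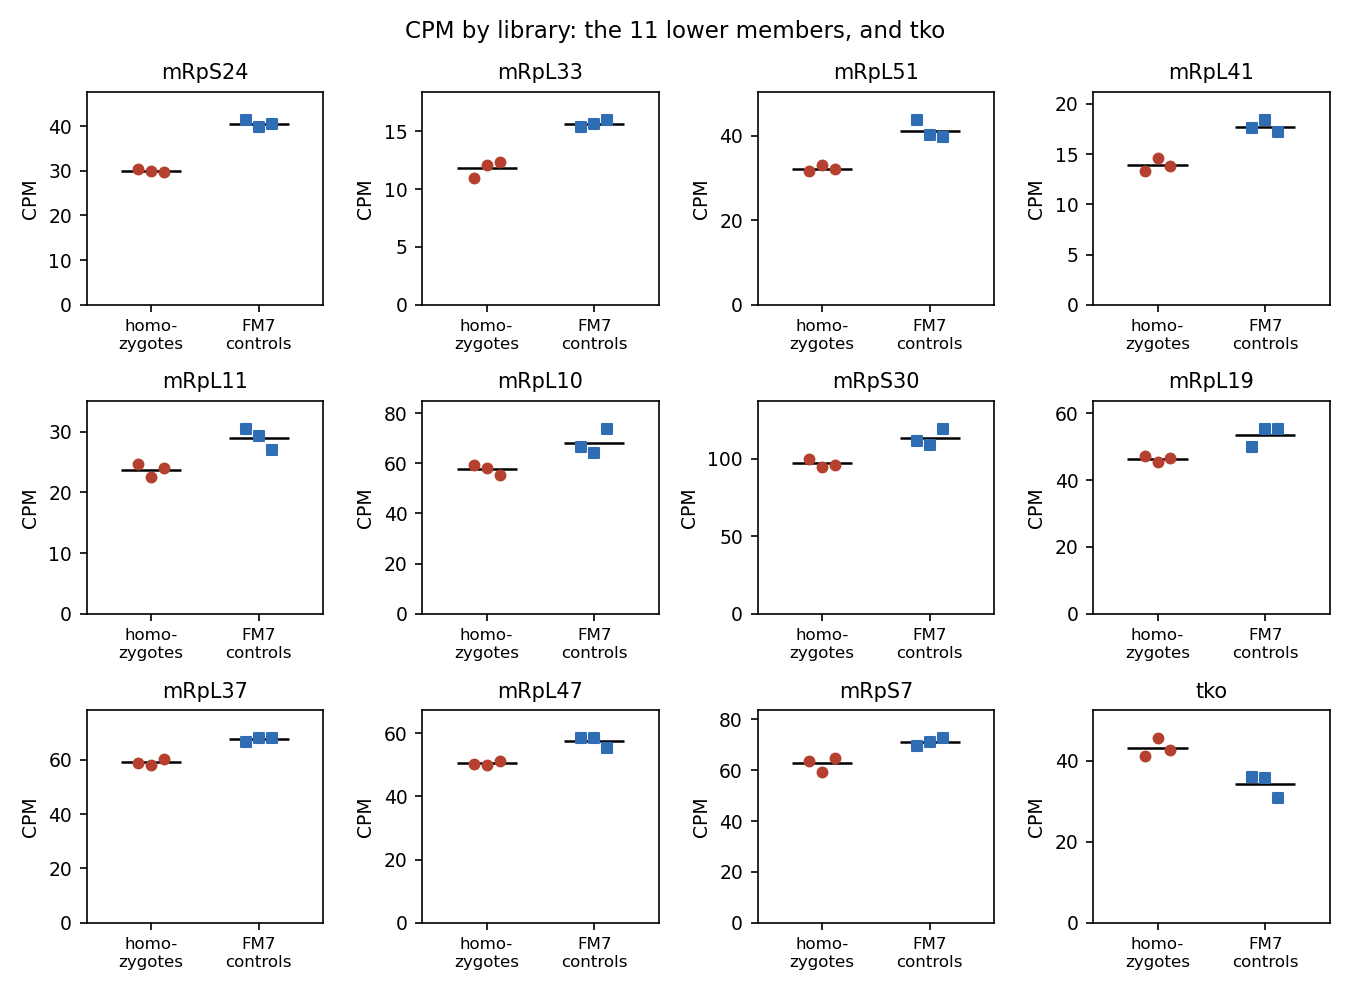
CPM (y axis, from 0) in each library of the 11 members called lower, and of tko, a small subunit protein gene with another name; circles are homozygotes, squares FM7 controls and bars group means. In each member panel all circles lie below all squares, whereas for tko they lie above.

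No core gene (mRpL2, mRpL3 or mRpL4) was past the threshold with all 6 libraries. mRpL4 was called lower in 1 of 13 alternative fits, the one without FM7 replicate 3. mRpL2 and mRpL3, which in bacteria line the peptidyl transferase region, had log2 fold changes of -0.08 and -0.13 (adjusted p = 0.616 and 0.102 by edgeR), and their levels were 42.7 ± 2.71 and 61.0 ± 1.19 CPM in homozygotes and 45.1 ± 6.49 and 66.6 ± 1.35 CPM in FM7 controls (SD, n = 3 each). mRpS5, at the messenger RNA entrance, averaged 100.7 ± 5.27 CPM in homozygotes and 107.0 ± 3.09 CPM in FM7 controls. mRpS29, a GTP-binding protein of the small subunit head known in human cells as DAP3, averaged 74.3 ± 3.32 CPM in homozygotes and 78.8 ± 5.16 CPM in FM7 controls. Both had estimates somewhat above the member median of -0.13, at -0.09 and -0.08, and neither was past the threshold. mRpS33 had the third lowest estimate, -0.36, with 13.1, 12.3 and 12.4 CPM in homozygotes and 18.9, 15.3 and 14.2 CPM in FM7 controls. The groups did not overlap, but the controls were widely spread, and the difference was not past the threshold (adjusted p = 0.0624 by edgeR).

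At the upper end, 8 members had an estimate above 0. The highest were mRpL16, with 44.8, 43.5 and 45.4 CPM in homozygotes and 42.8, 45.2 and 34.5 CPM in FM7 controls, mRpS26 and mRpL22. FM7 replicate 3 was the lowest library for all of them, and the groups overlapped. Their log2 fold changes were 0.13, 0.07 and 0.05 (adjusted p = 0.361, 0.503 and 0.668 by edgeR). Without FM7 replicate 3 these estimates were close to 0, at 0.01 for mRpL16, 0.01 for mRpS26 and -0.02 for mRpL22.

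The 3 paralogous genes of the bacterial S18 type were all below 0 in their estimates, at different levels. Per kilobase of exon, mRpS18A, whose mammalian counterpart belongs to the large subunit, was at 67.8 ± 4.22 CPM in homozygotes and 74.6 ± 7.13 CPM in FM7 controls. mRpS18B was at 40.8 ± 1.003 CPM per kilobase in homozygotes and 44.5 ± 2.68 in FM7 controls, and mRpS18C at 19.8 ± 0.557 in homozygotes and 23.3 ± 2.45 in FM7 controls (SD, n = 3 each). The log2 fold changes of mRpS18A, mRpS18B and mRpS18C were -0.14, -0.12 and -0.24, none past the threshold. In FM7 controls the order of these levels was mRpS18A, mRpS18B, mRpS18C, with neighbours further apart than their SDs.

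Members were expressed at closely similar levels per length. In FM7 controls 70 of 73 were within 2-fold of their median of 50.3 CPM per kilobase, and the highest was 9.56 times the lowest. mRpL12, a protein present in several copies in each ribosome, stood highest at 161 ± 7.07 CPM per kilobase in homozygotes and 168 ± 4.83 in FM7 controls, 1.83 times the next member in FM7 controls. That member, mRpL53, was at 84.2 ± 2.93 in homozygotes and 91.6 ± 7.43 in FM7 controls, and its exons overlap CG33155 on the same strand, so its level may hold reads of that gene. mRpL30 followed with 84.7 ± 2.90 in homozygotes and 83.1 ± 7.17 in FM7 controls, then mRpS10 with 75.3 ± 1.14 in homozygotes and 79.6 ± 7.41 in FM7 controls. In FM7 controls mRpL30 and mRpS10 lay within 1 SD of each other, and mRpL53 lay slightly further than 1 SD above mRpL30. At the low end mRpL48 was at 16.3 ± 2.29 in homozygotes and 17.6 ± 0.130 in FM7 controls, followed by mRpS18C, mRpL21 at 24.0 ± 1.203 in homozygotes and 25.7 ± 2.13 in FM7 controls, and mRpL27 at 28.4 ± 1.51 in homozygotes and 29.5 ± 4.52 in FM7 controls. Apart from mRpL48 these lay within about 1 SD of their neighbours.

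**Figure D3:**
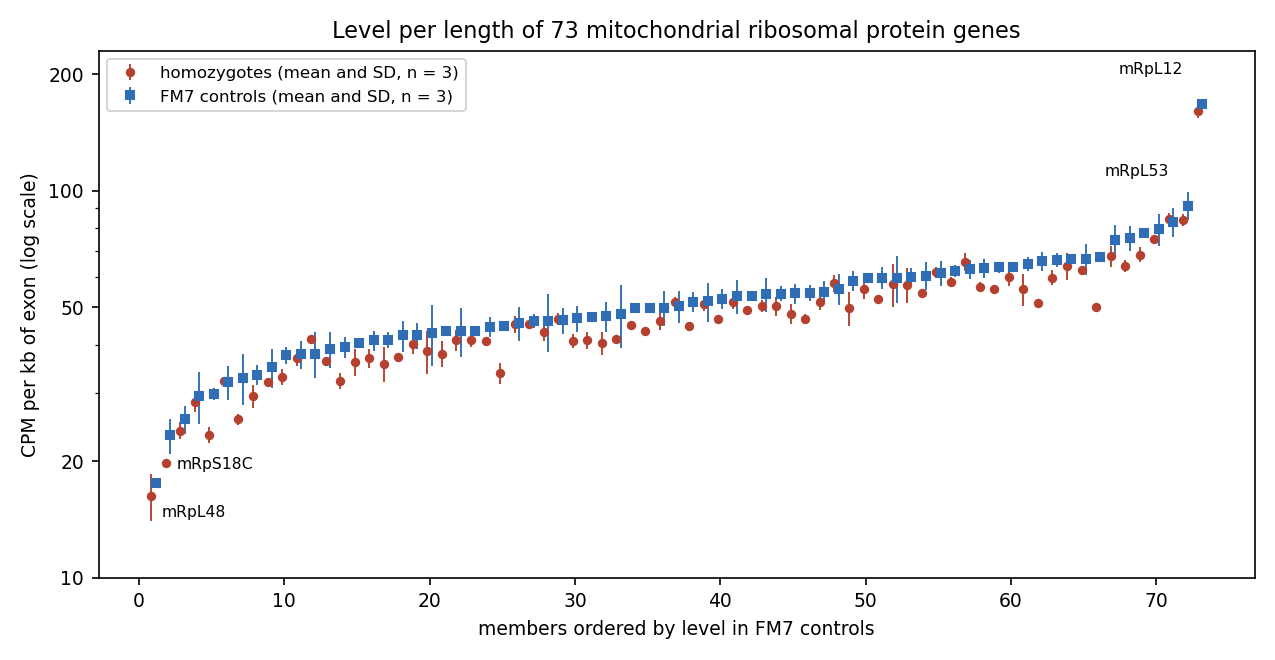
Level of the 73 members in CPM per kilobase of exon (y axis, log scale), ordered by their level in FM7 controls (x axis); circles are homozygotes and squares FM7 controls, with bars of 1 SD (n = 3 each). Most members lie between 30 and 90, mRpL12 stands above at 161 in homozygotes and 168 in FM7 controls, and most circles lie slightly below their squares.

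The groups did not overlap, with homozygotes lower, for 33 of 73 members, or 45.2%, beside 20.1% of all tested genes. No member had all homozygous libraries above all controls, beside 21.6% of all tested genes. Summed over members, the libraries had 3189, 3068 and 3141 CPM in homozygotes and 3488, 3473 and 3238 CPM in FM7 controls. Homozygotes were below every control in this sum, and FM7 replicate 3 was nearer to homozygote 1 than to the other FM7 libraries. As a share of all counts, without TMM scaling, members took 0.328%, 0.317% and 0.322% in homozygotes and 0.336%, 0.333% and 0.321% in FM7 controls, and on this scale the groups overlapped.

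The median over members of the log2 ratio to the 6-library geometric mean was -0.04, -0.10 and -0.07 in homozygotes 1 to 3 and 0.11, 0.09 and -0.01 in FM7 replicates 1 to 3. FM7 replicate 3 thus stood apart from the other controls. It was also low for cytosolic ribosomal protein genes, with medians of -0.04, -0.12 and 0.02 in homozygotes and 0.19, 0.15 and -0.17 in FM7 controls, and for respiratory chain genes, with -0.02, -0.03 and -0.01 in homozygotes and 0.09, 0.06 and -0.09 in FM7 controls. Without FM7 replicate 3, 19 members were lower, 71 had an estimate below 0 and the member median was -0.18. In that fit 9.03% of all tested genes were lower, and their median was -0.003. Of members described above with estimates near 0, mRpL2 was then at -0.20, mRpL27 at -0.18, mRpS10 at -0.16, mRpS29 at -0.14 and mRpL30 at -0.04, none past the threshold. Others moved less, with mRpL12 at -0.04, mRpS5 at -0.08 and mRpL1 at -0.09 in that fit. mRpL45 and mRpL21 were at -0.18 and -0.17 in that fit, and mRpS18A at -0.22.

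**Figure D4:**
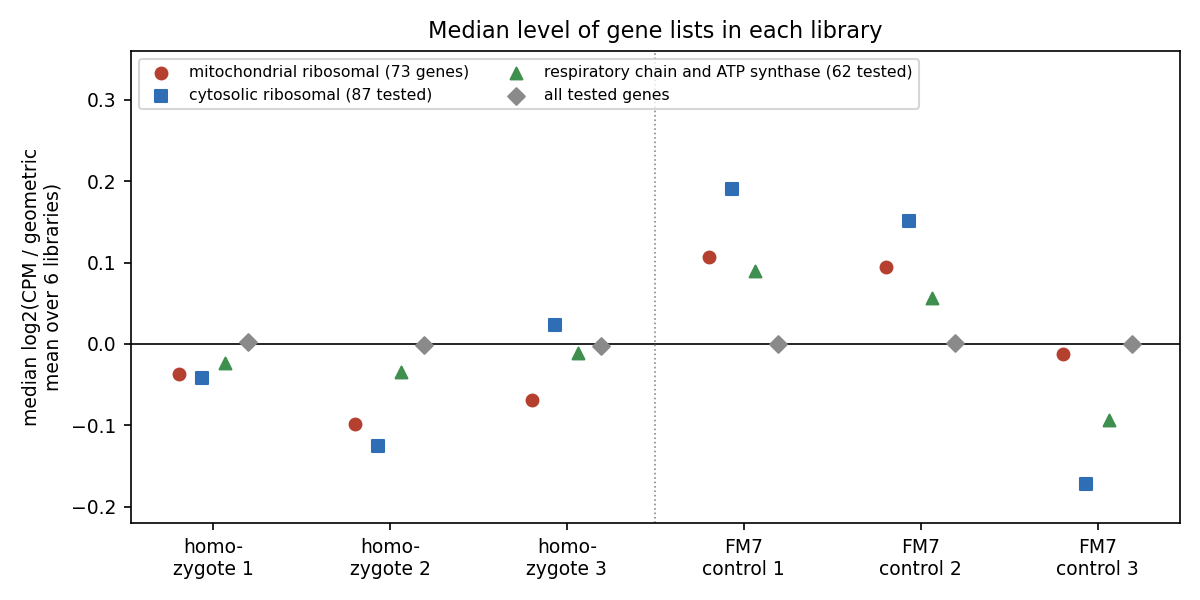
Median log2 ratio of CPM to the geometric mean over the 6 libraries (y axis) for 4 sets of genes in each library (x axis). Mitochondrial ribosomal medians lie between -0.10 and -0.04 in homozygotes and at 0.11, 0.09 and -0.01 in FM7 controls, while the median over all tested genes stays at 0.

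Most calls of single members ended in at least 1 of the fits that leave out 1 library. Calls over all genes changed in these fits too. The share of all tested genes called lower ran from 2.43% to 9.03% over them, beside 7.75% with all 6 libraries. mRpS24 and mRpL51 were called lower in all 6 fits that leave out 1 library, with adjusted p up to 0.0124 for mRpS24 and 0.0338 for mRpL51 by edgeR. Leaving out FM7 replicate 1 or 2 took mRpL33 past 0.05 (adjusted p up to 0.0605 by edgeR). For mRpS30 this held of homozygous replicates 2 and 3 and of FM7 replicate 1 (up to 0.0876). For mRpL41 it held of homozygous replicates 1 and 3 and FM7 replicates 1 and 2 (up to 0.0778), for mRpL11 of homozygous replicates 2 and 3 and FM7 replicates 1 and 2 (up to 0.0945), and for mRpL10 of every homozygous replicate and FM7 replicate 1 (up to 0.130). mRpL37 was past the threshold only without FM7 replicate 3 (up to 0.0803 in the other fits), mRpL19 only without FM7 replicate 1 (up to 0.120), mRpL47 only without FM7 replicate 3 (up to 0.102), and mRpS7 in none of these fits (up to 0.143). mRpS33 and mRpL45 were called lower without FM7 replicate 3, with adjusted p of 0.0369 and 0.0332 by edgeR. Every one of the 11 kept an estimate below 0 in all 13 alternative fits. These fits reuse the counts on which the 11 were called, so this is no separate support for the calls.

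Position and length were compared because members are short, with 327 to 2078 exon bases. On X, the chromosome that differs between the groups, 2 of 11 members were lower, beside 6.98% of all tested genes there, with a median log2 fold change of -0.11. On the autosomes 9 of 62 were lower, with a median of -0.13. By arm, 3 of 12 were lower on 2L, beside 9.13% of all tested genes there, and 1 of 12 on 2R, beside 6.64%. On 3R 5 of 21 were lower, beside 6.66% of all tested genes there. On 3L 0 of 17 were, beside 9.47%, the highest share of these arms. The 3L members had a median of -0.15, 8 of them were lower at an unadjusted p under 0.05 by edgeR, and DESeq2 and limma-voom also called 0. Longer members had higher log2 fold changes, with a Spearman rho of 0.349 over 73 genes, given as a description because all of them were read from the same 6 libraries. Over all tested genes that rho was 0.138.

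Other short genes at like levels had a similar share of lower calls. Of 599 other tested genes under 1000 exon bases, within the range of FM7 levels that members span, 94 (15.7%) were lower and 14 (2.34%) higher, with a median log2 fold change of -0.12. Members of that length had 8 of 51 lower and a median of -0.15. Without a length bound, 462 of 4724 other genes within that range (9.78%) were lower and 303 (6.41%) higher, with a median of -0.04. The share called lower was thus nearly the same, 15.7% in both. Other measures were somewhat further apart. Groups did not overlap, with homozygotes lower, for 49.0% of members under 1000 bases and 33.1% of the other short genes, and estimates were below 0 for 90.2% of those members and 81.0% of the other short genes. Whether members differ from these genes was not tested. The part of transcript length in the result was not tested.

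Of the 73 members, 43 share exon bases with another gene, 42 of them with a gene on the other strand and 3 with a gene on the same strand (mRpL53, mRpL13 and mRpS14). The median log2 fold change was -0.15 over these 43 members and -0.12 over the 30 that share none, of which 5 were lower. Among called members, mRpL33, mRpS30, mRpL19, mRpL37 and mRpS7 share none. mRpL11 shares 53 bases with CG8461, which was itself lower (log2 fold change -0.48, adjusted p = 0.0127 by edgeR), and mRpL47 shares 6 bases with Rlb1, also lower (-0.23, adjusted p = 0.0376). The neighbour of mRpL10, CG11617, had 0.155 CPM in homozygotes and 0.0796 CPM in FM7 controls.

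The mitochondrial ribosomal protein genes with other symbols differed from each other. tko (FBgn0003714, X, 2442313 to 2443976), which encodes the decoding-centre protein of the small subunit and whose Drosophila mutants have seizures, was higher, with 41.2, 45.7 and 42.7 CPM in homozygotes and 36.1, 35.8 and 30.8 CPM in FM7 controls. Every homozygous library was above every control, and edgeR put the difference at 0.34 on the log2 scale (SE 0.08) with an adjusted p of 0.0184. With homozygous replicate 2 or 3 left out, its adjusted p reached 0.0694 by edgeR. bonsai, a small subunit gene, had a log2 fold change of -0.15 (adjusted p = 0.107 by edgeR).

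The 2 ribosomal RNAs that these proteins bind were read at very unequal levels in these polyA libraries. The small subunit RNA, mt:srRNA, was higher, with 7.06, 11.3 and 11.9 CPM in homozygotes and 1.88, 2.61 and 0.656 CPM in FM7 controls (log2 fold change 2.56, SE 0.45, adjusted p = 0.0094 by edgeR, and 0.0571 without FM7 replicate 1). The large subunit RNA, mt:lrRNA, had 9863, 11093 and 10227 CPM in homozygotes and 9927, 11064 and 4911 CPM in FM7 controls. FM7 replicate 3 was again the low library, and the difference was not past the threshold (0.27 on the log2 scale, edgeR adjusted p = 0.542), with an estimate of -0.02 without that library. Of 11 tested mitochondrial messenger RNAs 1 was higher, mt:ATPase8, at 3.34 ± 0.238 CPM in homozygotes and 1.54 ± 0.202 CPM in FM7 controls (SD, n = 3 each), a call that ended when homozygous replicate 2 or 3 was left out (adjusted p up to 0.0601 by edgeR). The median of these messenger RNAs was 0.06 with all 6 libraries. Without FM7 replicate 3, 1 mitochondrial messenger RNA was higher and 2 were lower.

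Among other genes of mitochondrial translation, 2 of 16 mitochondrial tRNA synthetase genes (12.5%) were lower and none higher, with a median log2 fold change of -0.04. These were IleRS-m (-0.27) and TyrRS-m (-0.25). Leaving out homozygous replicate 2, homozygous replicate 3 or FM7 replicate 1 ended the IleRS-m call (edgeR adjusted p up to 0.0935). For TyrRS-m, leaving out homozygous replicate 1, homozygous replicate 3, FM7 replicate 1 or FM7 replicate 2 did so (up to 0.109). Of 13 translation factor genes 1 (7.69%) was lower, the ribosome recycling factor gene mRRF1 (-0.26), with a median of -0.09. The mRRF1 call held when homozygous replicate 1 was left out and ended when any other library was (edgeR adjusted p up to 0.127). Of 17 genes of mitochondrial DNA upkeep and expression edgeR called 0 in either direction (median -0.03), as did DESeq2 and limma-voom, with 2 lower at an unadjusted p under 0.05. Of 13 genes of protein import edgeR called 0 as well (median -0.02), with 3 lower at an unadjusted p under 0.05, while DESeq2 called 1 lower and limma-voom 0.

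Among 7 genes encoding possible regulators, Cdk4 was higher, at 102 ± 5.21 CPM in homozygotes and 83.8 ± 1.01 CPM in FM7 controls (SD, n = 3 each; log2 fold change 0.29, adjusted p = 0.00912 by edgeR). Its partner gene CycD had a log2 fold change of 0.03, Myc 0.06 and srl, the Drosophila PGC-1 gene, -0.11, none past the threshold. Of 8 mitochondrial stress genes, Thor was higher (0.54, adjusted p = 0.0354 by edgeR), a call that held when homozygous replicate 1 was left out and ended when any other library was (up to 0.108). Without FM7 replicate 3, 2 of the stress genes were lower and 0 higher. DESeq2 called 1 higher and 1 lower.

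Set beside related gene groups, the cytosolic ribosomal protein genes had a like median, -0.12, with 5 of 87 lower and 1 higher. They were read far more deeply per length, with a median in FM7 controls of 1996 CPM per kilobase. Its lower genes included RpL41 (-0.47), RpS15Aa (-0.37), RpS14b (-0.32) and RpS15Ab (-0.31), and the higher one was RpS19b (1.73), which had 3.27 ± 1.13 CPM in homozygotes and 0.986 ± 0.161 CPM in FM7 controls (SD, n = 3 each). The RpL41 and RpS19b calls held in every fit without 1 library. RpS15Aa lost its call when homozygous replicate 2 or FM7 replicate 1 was left out (adjusted p up to 0.0585 by edgeR). For RpS15Ab leaving out homozygous replicate 3 also did so (up to 0.0796), and for RpS14b leaving out homozygous replicate 3 or FM7 replicate 2 as well (up to 0.0841). Without FM7 replicate 3, 42 cytosolic genes were lower and 1 higher, where 9.03% of all tested genes were lower. The number lower was 1 to 4 in the other fits without 1 library, and 10 by DESeq2. Respiratory chain and ATP synthase genes had a median of -0.05, with 3 of 62 (4.84%) lower and 0 higher. The lower ones were ATPsyndelta (-0.21), ND-B17.2 (-0.20) and ND-MLRQ (-0.17). All of these calls ended when homozygous replicate 1, homozygous replicate 3 or FM7 replicate 1 was left out. So did those of ATPsyndelta and ND-MLRQ without homozygous replicate 2, and those of ND-B17.2 and ND-MLRQ without FM7 replicate 2 (edgeR adjusted p up to 0.0804 for ATPsyndelta, 0.130 for ND-B17.2 and 0.136 for ND-MLRQ). Without FM7 replicate 3, 15 respiratory chain and ATP synthase genes were lower and 0 higher, and DESeq2 called 6 lower. With library sizes alone 3 were higher and 0 lower. Whether these groups differ from the mitochondrial ribosomal protein genes was not tested.

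**Figure D5:**
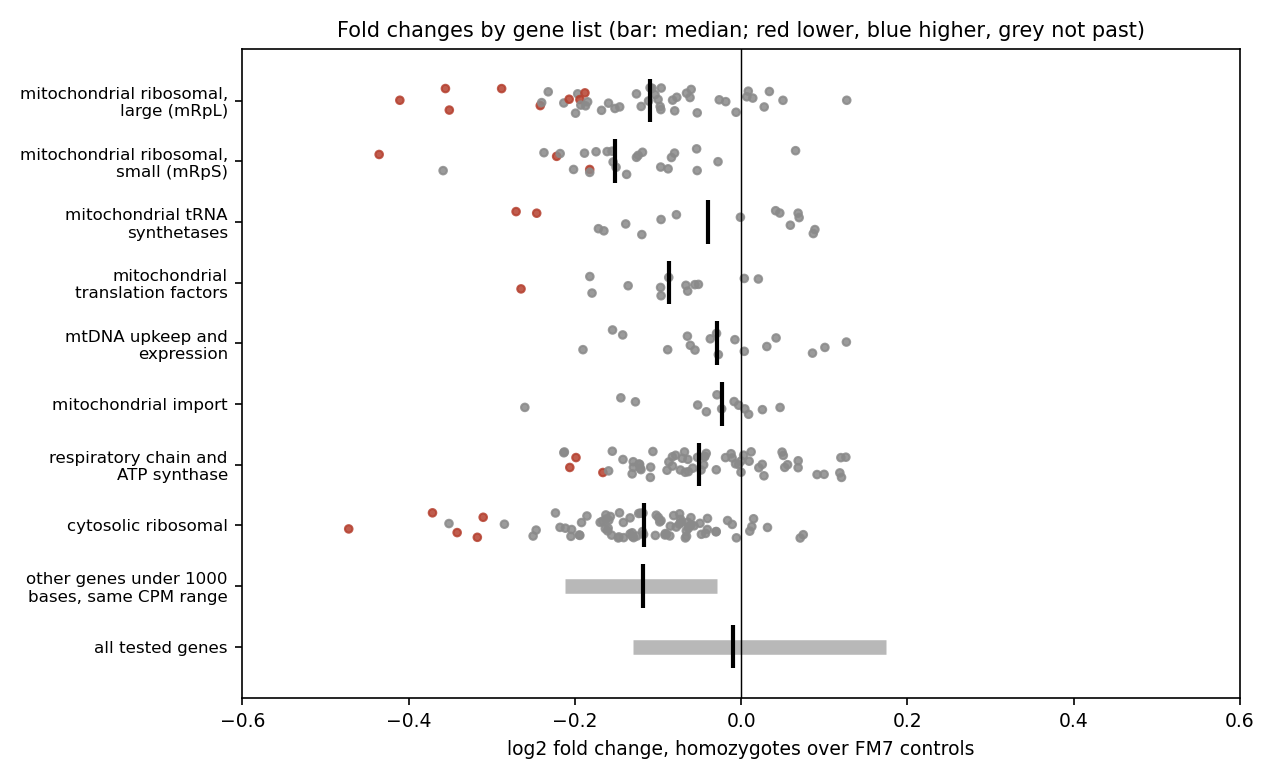
Log2 fold changes of homozygotes over FM7 controls (x axis) of tested genes by list, 1 point per gene, with black bars at list medians; the lowest pair of rows shows the median and the middle 50% of genes. The medians are -0.11 and -0.15 for the mitochondrial ribosomal subunits, -0.12 for cytosolic ribosomal and for other short genes, and -0.01 for all tested genes; 2 cytosolic genes lie beyond the axis.

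Markers of other cell types moved between the groups as well. Muscle sheath markers summed to 357 to 564 CPM in homozygotes and 257 to 311 CPM in FM7 controls, with 5 of 8 higher and none lower by edgeR. The number higher was 0 without homozygous replicate 2, FM7 replicate 1 or FM7 replicate 3, and 3 without homozygous replicate 3. DESeq2 called 7 higher and limma-voom 4. Of 7 tested haemocyte markers 6 were higher and 1, srp, was lower, with a median log2 fold change of 3.15. Hml averaged 6.997 ± 3.10 CPM in homozygotes and 0.750 ± 0.300 CPM in FM7 controls, and Pxn 29.4 ± 8.72 CPM in homozygotes and 3.34 ± 0.648 CPM in FM7 controls (SD, n = 3 each). srp had 42.5 ± 6.24 CPM in homozygotes and 98.0 ± 6.53 CPM in FM7 controls, and it made up most of the list's sum in FM7 controls. The sums, 84.8 to 115 CPM in homozygotes and 97.0 to 110 CPM in FM7 controls, therefore overlapped. Without any 1 library, 5 or 6 of these markers were higher. Fat body markers summed to 446 to 583 CPM in homozygotes and 316 to 341 CPM in FM7 controls, with 2 of 5 tested higher and 1 lower. The lower one, CG5966, lost its call without homozygous replicate 2, homozygous replicate 3 or FM7 replicate 1, and of the higher ones FASN1 did so without FM7 replicate 1 or 3 (edgeR adjusted p up to 0.0863 for CG5966 and 0.0806 for FASN1). Of follicle cell markers 5 of 6 were lower, and 1 of 5 germline markers, aub, was higher (log2 fold change 0.22), a call that ended in every fit without 1 library (edgeR adjusted p up to 0.160). The number of germline markers higher was 1 without homozygous replicate 1 and 0 in each other fit without 1 library. It was 2 by DESeq2 and 0 by limma-voom. Of 6 late chorion markers edgeR and limma-voom called 0, with 4 lower at an unadjusted p under 0.05 by edgeR, and DESeq2 called 4 lower. For all 6 the homozygous libraries were below all controls. No marker list was at 0 in a group, although the haemocyte gene He had counts in 1 homozygous library and in no FM7 control. The part of these cell types in the result on mitochondrial ribosomal protein genes was not tested.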

How the data were processed

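Values were raw read counts as deposited by the authors, whole numbers with 1 column per library and 1 row per gene or transposon family. The submitters' processing notes list STAR 2.7.8a, featureCounts 2.0.1 and DESeq2 1.30.1, with no roles. Per the labels' protocols, TRIzol RNA was the input for polyA libraries that keep strand. The build, annotation, strand setting and treatment of reads with several matches were not given in the sources used. Symbols, positions and exon lengths came from Ensembl 115 (assembly BDGP6.54), matched on the identifier, which may not be the authors' build, and 35 of 17633 gene rows had no match.

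Counts of 9150 genes and 79 transposon families that passed filterByExpr entered edgeR 4.0.16 under R 4.3.3 (TMM, robust quasi-likelihood test, Benjamini-Hochberg adjustment, threshold 0.05), homozygotes over FM7 controls. SEs are the unshrunken log2 fold change over the root of its F statistic. The 95% intervals use the total degrees of freedom of that fit, which are the residual and the prior ones together. CPM use TMM-scaled totals, and levels per length divide by the union of annotated exons. The procedure was tested on simulated data. No pair of libraries of 1 group agreed within counting error (chi-square per degree of freedom 6.41 to 40.3). Each library was counted as a sample. These values cannot show whether the spread lies between pools of flies or is technical. The alternatives were library sizes alone, upper quartile scaling, DESeq2 1.42.0, limma-voom (limma 3.58.1), no filter, genes only, a replicate block and leaving out each library.

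The members and lists were chosen with earlier results of these data known. The named members were those past the threshold, the 4 highest and 4 lowest per length in FM7 controls, the 3 with the highest and the 3 with the lowest fold change, and a set fixed by role. Of other lists, up to 4 called genes per direction were named. mRpL13, mRpS14, mRpL23, mRpL24, bonsai, CycD, Myc, srl, He and the neighbours of members were named after their values were seen, and the class of short genes at like levels was also chosen then. The list entries nos, LRPPRC2 and Tim14 were not analysed here, nor was mRpL58.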

Additional observations from a re-analysis of the deposited data

How the results depend on the processing

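No member was higher in any of the 13 alternative fits by edgeR, DESeq2 or limma-voom, and the member median was below 0 in all of them. The count of lower members depended on the fit more than the median did. It was 4 with library sizes alone, 7 with upper quartile scaling, 8 by DESeq2, 11 by limma-voom, 10 without the filter on low counts, 11 with genes only, and between 3 and 19 over the fits without 1 library. Every member called lower with library sizes alone, upper quartile scaling, DESeq2 or the replicate block was among the 11. With library sizes alone the member median was -0.042 and that of all tested genes 0.073, so members stayed 0.12 below all genes, as in the fit reported. Over the fits without 1 library the member median ran from -0.18 to -0.12.

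Over all genes, 320 were lower with library sizes alone, and over the fits without 1 library 522 to 976 were higher and 225 to 853 lower. Higher genes made up 82.8% of all calls under library sizes alone and 60.2% under TMM. Deviations of same-numbered libraries from their group means had correlations of -0.30, -0.07 and -0.04, and those of differently numbered libraries -0.19 to 0.28. With 3 libraries per group, these values cannot show whether replicate numbers pair the samples. With the replicate block, 3 members (mRpS24, mRpL33 and mRpL51) were lower, and 674 genes were higher and 347 lower.

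At least 1 member changed sign in 11 of 13 alternative fits, 14 with library sizes alone and 6 without FM7 replicate 3, all of them with reported estimates within 0.11 of 0. Among genes named by the rule, the estimates with library sizes alone were 0.022 for mRpL12, 0.0039 for mRpS10, 0.032 for mRpL27, 0.022 for mRpL1 and 0.0048 for mRpL2. Without FM7 replicate 3 the estimates were -0.043 for mRpL30, -0.017 for mRpL22 and -0.0185 for mt:lrRNA, and without FM7 replicate 2 they were 0.077, 0.113 and 0.481 for these genes. mRpL27 had 0.019 without FM7 replicate 2 and mRpL48 0.0021 without homozygous replicate 3. The cause of these changes was not tested. At 231 or more counts per member and library, changes well under the intervals given could not be detected.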
